A study of Mus musculus with 18 samples.

Results

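The last step of a reprogramming time course, day 22 to day 26, was examined in cultures of mouse cells given the reprogramming factors labelled OCK, the usual short form for Oct4, c-Myc and Klf4, a set that leaves out Sox2. It was measured on 4 arrays, chosen by their labelled genotype and day, out of 18 in the series: a Tcf3 knockout (ko) culture on day 26, a ko culture on day 22, a Tcf3 wild-type (wt) culture on day 26 and a wt culture on day 22, with 1 array each. Another 6 arrays, of ko and wt cultures on days 11, 15 and 19, gave the spread between arrays and the levels that came before. The other arrays were iPSC clones and a partial iPSC clone treated with siRNA, and days count from the start of reprogramming. The labels do not give the Tcf3 allele, the type of the starting cells, or whether the days were taken from 1 culture per genotype.

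Tcf3 is the older name of Tcf7l1, a transcription factor of the Wnt pathway that holds down genes of the pluripotency network in embryonic stem cells unless beta-catenin binds it. Reprogramming cultures hold a mixture of starting cells, partly reprogrammed colonies and other cells that arise beside them. Genes of neurons such as Dcx and Ina, of the placenta such as the prolactin family on mouse chromosome 13, and of the naive pluripotent state such as Esrrb and Zfp42 are each tied to 1 kind of cell, so their levels follow both how many such cells a culture holds and how much of the RNA each one makes. In these bulk samples fewer cells of a type and less RNA per cell cannot be told apart.

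Values are log2 signal with a lowest value of 5.64, the log2 of 50, below which levels were set to that floor, so a value at the floor is an upper limit. Between 12278 and 12422 of 17903 genes were above it on the 4 arrays, and the 12926 genes above it on at least 1 of them were tested. Tcf7l1 itself was at 8.44 (day 26) and 8.1 (day 22) in ko, against 9.17 and 9.06 in wt, lower in ko on both days. The position of its probes relative to the deleted part is unknown here, so this level checks the labels only in part. Fibroblast markers (6 of 6, among them Col1a1 and Thy1) were above the floor on all 4 arrays, while the markers of muscle (Myh6, Tnnt2, Myog), of erythroid cells (Hba-a1, Gata1), and Gata4, Sox17 and Afp of endoderm were at it on all 4. The fourth endoderm marker, Gata6, was above the floor on all 4 arrays, at 6.66 (day 26) and 6.98 (day 22) in ko, against 6.42 and 8.17 in wt, as were Hbb-y of the erythroid list and Des and Mylpf of the muscle list. Of the factor genes, Pou5f1 differed by -0.23 in ko and -0.27 in wt, Klf4 by -0.18 and -0.031, and Myc by -0.22 and -0.24, and these probe sets may or may not detect the introduced copies. A second Klf4 probe set, of lower signal, was at 10.3 and 9.62 in ko, against 10.51 and 10.05 in wt, higher on day 26 in both.

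Over this step the ko and the wt cultures took unlike courses. In ko, 286 genes (2.21% of those tested) were at least 2-fold higher on day 26 than on day 22 and 141 (1.09%) at least 2-fold lower, and in wt 234 (1.81%) were higher and 105 (0.812%) lower. Both genotypes were at least 2-fold higher for 18 genes (0.139%) and at least 2-fold lower for 10 (0.0774%). The opposite course was more frequent in 1 direction: 53 genes (0.41%) were at least 2-fold lower in ko and at least 2-fold higher in wt, which is 37.6% of the genes lower in ko and 22.6% of those higher in wt, while 5 genes (0.0387%) were higher in ko and lower in wt. These counts rest on 1 array per genotype and day and carry no test.

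The earlier steps differed in this. Across genes, which are not independent replicates, the ko and wt changes correlated with Pearson's r = 0.601 from day 11 to 15 (Spearman's rho 0.461), 0.795 from day 15 to 19 (0.823), 0.692 from day 19 to 22 (0.699) and 0.0837 from day 22 to 26 (0.229), over 12844 to 12963 genes a step. The 4 steps held 44, 205, 115 and 18 genes that were at least 2-fold higher in both genotypes and 47, 133, 122 and 10 that were lower in both. Genes at least 2-fold lower in ko and higher in wt numbered 3, 0, 1 and 53. The SDs of the changes over genes were 0.28, 0.60, 0.52 and 0.43 in ko and 0.34, 0.45, 0.42 and 0.36 in wt over the 4 steps, so the last step had a smaller spread than the second and the third. The plot of the steps sets these counts beside the correlations.

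**Figure D1:**
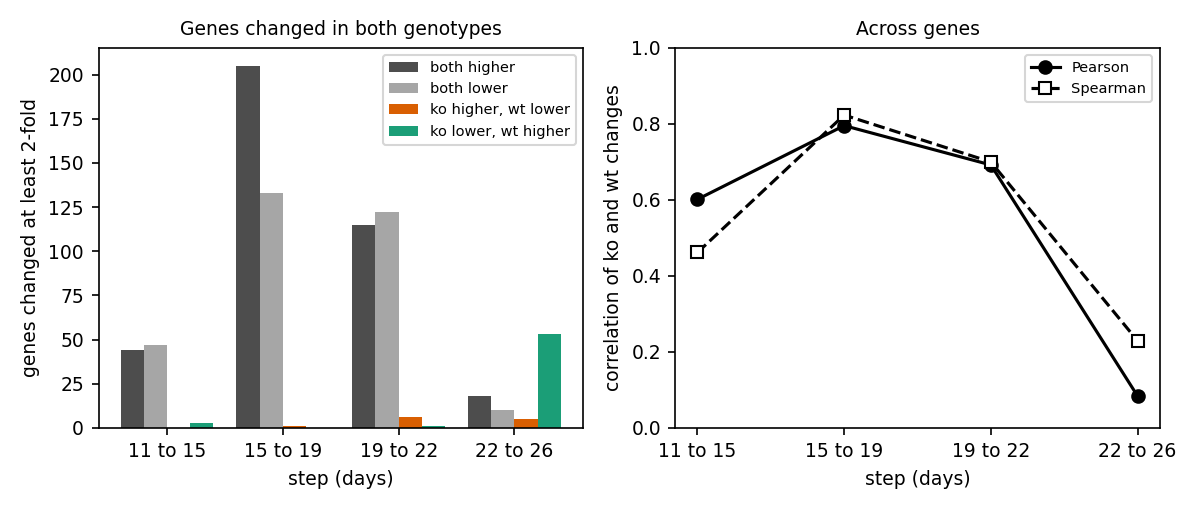
Left, the number of genes at least 2-fold higher or lower in both genotypes over each step between sampled days, by the direction in ko and wt. Right, Pearson and Spearman correlations, across genes, of the ko changes with the wt changes. From day 22 to 26 the Pearson correlation is 0.0837, and 53 genes are lower in ko and higher in wt.

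To find changes seen in 1 genotype only, the difference of the 2 changes, ko minus wt, was tested with limma, taking the spread from how ko and wt differed on days 11, 15 and 19. The change was more positive in ko for 66 genes (0.511%) and more negative in ko for 179 (1.38%) at an adjusted p under 0.05. Of the 66 genes, 39 were at least 2-fold higher in ko and 13 at least 2-fold lower in wt, and the median changes were 1.16 in ko and -0.40 in wt. Of the 179 genes, 58 were at least 2-fold lower in ko and 136 at least 2-fold higher in wt. Changes of opposite sign were seen for 153 of the 179, against 5000 of all 12926 genes tested. Choosing genes by their difference favours opposite signs. The medians of the 179 were -0.69 in ko and 1.34 in wt, against 0 and -0.01 over all genes tested. The test assumes that the lone arrays of days 22 and 26 vary like those of the 3 earlier days, which leaves 2 residual degrees of freedom. For 26 of the 66 genes and 61 of the 179 all 6 earlier arrays were at the floor, so their spread is the prior's (SD 0.0901), and among genes above the floor on all 10 culture arrays, tested apart, 4 and 15 passed. Where a level is at the floor, the difference given is not exact, and an SE of 0.18 is the least that the prior allows and not a spread measured for that gene. The counts moved with the earlier day left out, to 14 and 82 without day 11, 17 and 60 without day 15, and 372 and 346 without day 19.

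**Figure D2:**
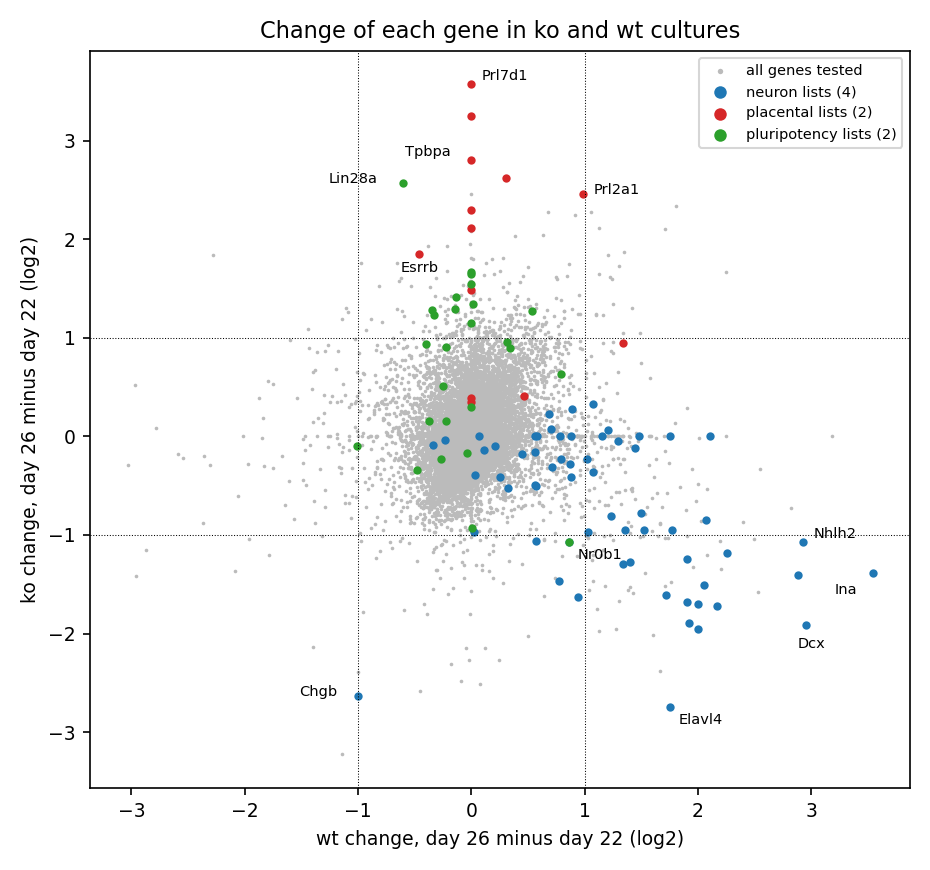
Change from day 22 to day 26 in the ko cultures (vertical) against the wt cultures (horizontal), in log2 units, with 1 point for each of the 12926 genes tested. Dotted lines mark 2-fold. Members of the neuron lists lie to the lower right, with Ina at -1.38 in ko and 3.54 in wt, and members of the placental lists at the top, with Prl7d1 at 3.57 in ko and 0 in wt.

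Genes of neurons held the most negative differences. Most of those plotted by day were above their earlier levels on day 22 in both genotypes, and on day 26 they were higher still in wt and lower in ko. Of 62 tested members of 4 neuron lists (66 on the array), 21 were at least 2-fold lower in ko and 0 higher, against 1.09% and 2.21% of all genes tested. In wt 33 were at least 2-fold higher and 1, the granule protein gene Chgb, was lower, against 1.81% and 0.812%. The difference passed the test for 30, all more negative in ko, against 1.38% of all genes tested. These lists and those below were chosen with earlier results of these data known. Their shares are descriptions and not independent support. The medians over the 62 were -0.5 in ko and 1.05 in wt. Without day 11 the test kept 20 of the 30, without day 15 it kept 17, and with floored genes given the 90th percentile of the spread it kept 15, while 4 passed among genes above the floor on all 10 culture arrays. With the spread taken from the clone and siRNA arrays it kept 22, with Ina, Stmn3 and Dner among those lost. The plain limma prior kept 20 and the mean of probe sets 24. Under any alternative run 0 members passed as more positive in ko. Most alternatives change only the spread and leave the difference as it is, so they could not turn its sign.

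Among structural genes, Ina, which encodes the neuronal intermediate filament protein alpha-internexin, was at 6.67 (day 26) and 8.06 (day 22) in ko, against 11.24 and 7.7 in wt. It was 2.61-fold lower in ko and 11.6-fold higher in wt, a difference of -4.93 ± 0.18 log2 (SE; adjusted p = 0.00482 by limma). Ina did not pass with the spread taken from the clone and siRNA arrays. Dcx, whose product binds microtubules in migrating neurons, was at the floor on day 26 and at 7.56 on day 22 in ko, against 9.72 and 6.77 in wt. It was therefore at least 3.78-fold lower in ko and 7.75-fold higher in wt (adjusted p = 0.00482 by limma). The reticulon gene Rtn1 was at 6.87 and 8.83 in ko, against 10.91 and 8.9 in wt. The neurofilament gene Nefm was at 6.83 and 8.5 in ko, against 10.26 and 8.36 in wt, and the stathmin gene Stmn3 at 5.72 and 7.45 in ko, against 9.61 and 7.43 in wt. In all 5 genes wt on day 26 was the highest of the 4 arrays and ko on day 26 the lowest. Of the 17 structural genes tested, 8 were at least 2-fold lower in ko, 10 were at least 2-fold higher in wt and 9 passed the test, Stmn4, Gap43, Dpysl5 and Mapt among them. Stmn2 (-0.97 in ko, 0.028 in wt), Tubb3 (-1.47, 0.78) and Dpysl3 (0.27, 0.89) did not pass.

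Genes for RNA-binding proteins of neurons had the same pattern. Elavl4 was at the floor on day 26 and at 8.39 on day 22 in ko, against 10.09 and 8.34 in wt, and its relative Elavl3 was at 6.24 and 7.65 in ko, against 9.77 and 6.88 in wt. The splicing factor genes Rbfox1 and Nova1 differed by -3.44 and -3.15 (adjusted p = 0.00487 and 0.00482 by limma), with wt at 8.7 and 9.0 on day 26. Elavl2 had the same signs, with changes of -0.42 in ko and 0.26 in wt, and did not pass (adjusted p = 0.47 by limma). Its other probe sets, of lower signal, had differences of -1.60, -1.22, -1.11 and 0.14. Of the 16 genes of the RNA-binding and adhesion list 7 were at least 2-fold lower in ko, 10 at least 2-fold higher in wt, and 8 passed, including the vesicle protein gene Nsg2 (-3.81), the Notch-binding receptor gene Dner (-3.56) and the imprinted gene Nnat (-2.63).

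**Figure D3:**
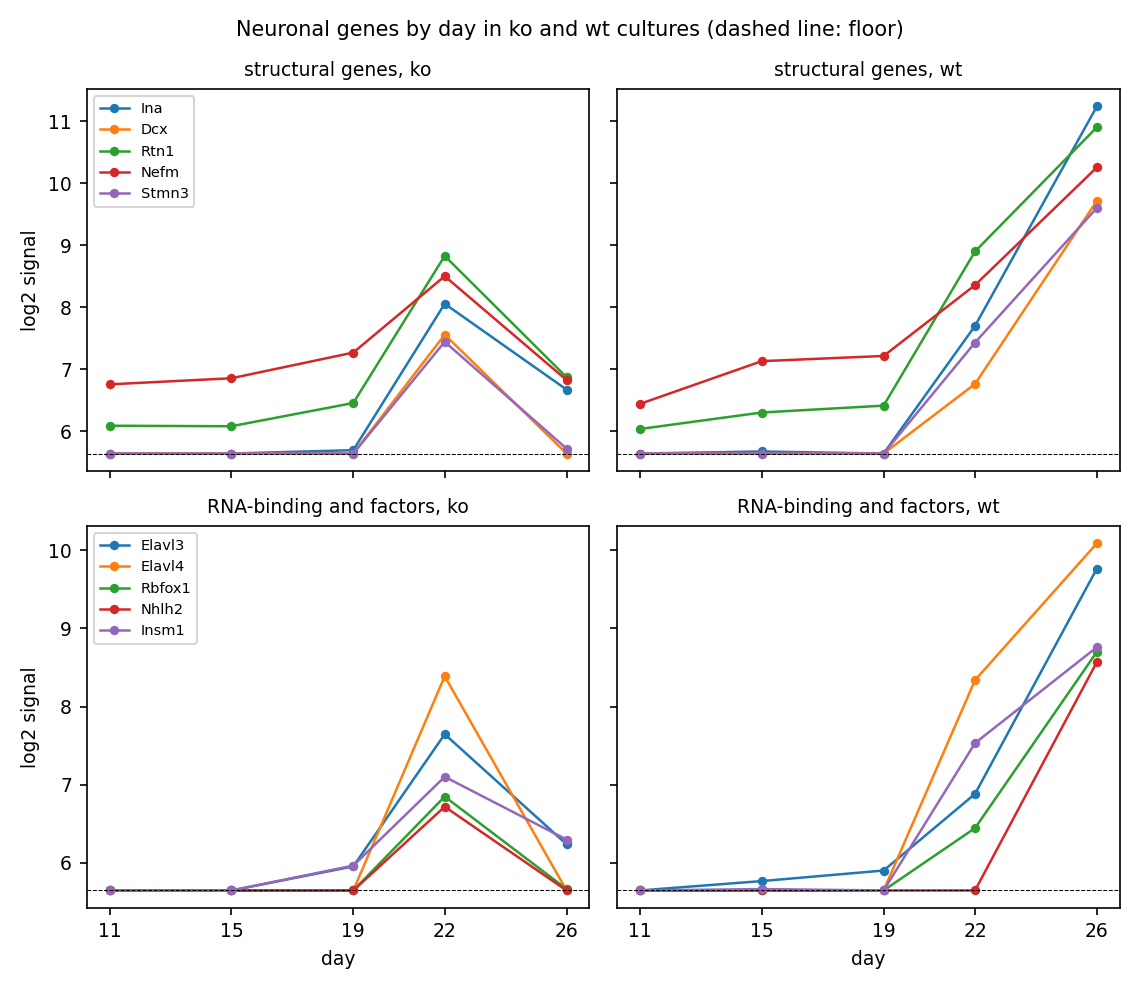
Log2 signal of 10 neuronal genes on days 11 to 26 in ko (left) and wt cultures (right), 1 array per point, with the floor as a dashed line. Most lie at or near the floor through day 19 and above it on day 22 in both genotypes, and they end between 5.64 and 6.87 in ko and between 8.57 and 11.24 in wt.

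Among synaptic and secretory genes several were at the floor in ko on both days, and their differences lay in wt. Gad1, which makes the transmitter GABA, was at the floor on both days in ko, against 8.27 (day 26) and 6.16 (day 22) in wt (adjusted p = 0.0137 by limma). The vesicular glutamate transporter gene Slc17a6 was at 7.13 in wt on day 26 and at the floor on the other 3 arrays, as was the SNARE gene Snap25, at 7.4. Gad1 of inhibitory and Slc17a6 of excitatory neurons were thus both above the floor in the day 26 wt culture. Gad2, the relative of Gad1, was at the floor on all 4 arrays. Syt4, a vesicle sensor gene, was at the floor and 7.35 in ko, against 8.96 and 6.96 in wt, and Scg3, of secretory granules, at 5.65 and 7.26 in ko, against 8.7 and 6.98 in wt. Chgb was lower on day 26 in both, at the floor and 8.28 in ko, against 8.37 and 9.37 in wt. Of 16 tested synaptic genes 4 were at least 2-fold lower in ko, 7 were at least 2-fold higher in wt, and 9 passed, and 3 of the 16 entered the test only through wt on day 26. Slc32a1, the vesicular transporter of GABA (-0.09 in ko, -0.33 in wt), and Chga, at or near the floor throughout, did not.

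Among 13 tested transcription factors of neuronal differentiation 6 were at least 2-fold higher on day 26 in wt, 2 at least 2-fold lower in ko, and 4 passed, against 1.38% of all genes tested. Of the 13, 5 were above the floor on all 4 arrays, 2 entered the test only through wt on day 26, and 4 were at the floor on day 22 in wt, so that they could not be lower on day 26. Nhlh2, a bHLH factor of postmitotic neurons, was at the floor on day 26 and at 6.72 on day 22 in ko, against 8.57 and the floor in wt (adjusted p = 0.00482 for the difference, by limma). Insm1, a zinc finger factor of newly formed neurons, was at 6.3 and 7.1 in ko, against 8.76 and 7.53 in wt. Ebf2 and Ebf3 also passed, and Neurod1, at the floor and 6.5 in ko against 8.42 and 6.35 in wt, missed the threshold (adjusted p = 0.0515 by limma). The proneural genes Neurog1 (6.52) and Neurog2 (6.44) were above the floor in wt on day 26 and did not pass. Otp, a homeobox factor of hypothalamic neurons, was at 6.33 and 7.37 in ko, against 9.41 and 6.91 in wt, and Lhx1, a LIM homeobox factor, was at 7.89 in wt on day 26 and at the floor on the other 3 arrays.

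Neural progenitor genes were divided. Pax6 was at 7.49 (day 26) and 8.74 (day 22) in ko, against 8.69 and 7.62 in wt (difference -2.32; adjusted p = 0.0215 by limma), and the Notch target Hes5 at 6.14 and 6.66 in ko, against 7.25 and 6.45 in wt (-1.33; adjusted p = 0.0355 by limma). These 2 of 14 tested genes passed, against 1.38% of all genes tested in that direction. Fabp7, a fatty acid binding protein of radial glia, had the largest difference of the list, -4.04 ± 1.14 (SE), but ko and wt had already differed on day 19, with ko at the floor and wt at 7.85, and it did not pass (adjusted p = 0.172 by limma). Sox1 (-0.67 in ko, -0.036 in wt), Nes (0.36, 0.38) and Vim (0.23, 0.13) had small changes in both genotypes. Among regional patterning genes Hoxa9, at 8.39 and 10.06 in ko against 10.61 and 9.3 in wt, and the midbrain and hindbrain gene En2, at 6.97 and 8.12 in ko against 8.24 and 7.08 in wt, passed as more negative in ko. Otx2, of the epiblast and the anterior brain, passed in the other direction, at 7.4 and the floor in ko against 6.34 and 7.0 in wt (2.42; adjusted p = 0.0102 by limma). Genes of glia (8 tested) and of the neural crest (7 tested) held 0 calls.

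Placental genes took the opposite course and were higher on day 26 in ko. The prolactin family, hormone genes of trophoblast that lie together on mouse chromosome 13, held 5 members that passed the test, and the promoters of 4 of these are shown, each as the 250 bases before the RefSeq start (GRCm38.p6), 5′ to 3′ on the gene's strand. They are Prl7d1 (chr13:27716738-27716987, minus strand), Prl6a1 (chr13:27312365-27312614, plus strand), Prl2a1 (chr13:27801405-27801654, plus strand) and Prl4a1 (chr13:28015962-28016211, plus strand), with the first of 2 listed starts for Prl7d1 and Prl6a1. Capitals mark AGATAA, which is read by factors of the GATA family and was searched on either strand, and TATATA.
Prl7d1: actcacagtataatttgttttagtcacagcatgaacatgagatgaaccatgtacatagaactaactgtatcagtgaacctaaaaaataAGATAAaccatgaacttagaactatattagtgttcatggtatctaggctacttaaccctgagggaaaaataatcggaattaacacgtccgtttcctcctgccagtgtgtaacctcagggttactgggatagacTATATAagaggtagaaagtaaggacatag
Prl6a1: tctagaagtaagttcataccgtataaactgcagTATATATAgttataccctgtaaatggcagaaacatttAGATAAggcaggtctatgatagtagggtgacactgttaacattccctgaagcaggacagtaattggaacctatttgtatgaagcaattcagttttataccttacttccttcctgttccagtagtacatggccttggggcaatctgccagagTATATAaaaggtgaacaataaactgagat
Prl2a1: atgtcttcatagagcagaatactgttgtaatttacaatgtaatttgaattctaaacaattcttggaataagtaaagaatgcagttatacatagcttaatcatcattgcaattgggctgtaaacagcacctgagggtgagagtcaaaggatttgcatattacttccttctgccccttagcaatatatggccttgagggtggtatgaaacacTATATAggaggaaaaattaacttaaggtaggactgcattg
Prl4a1: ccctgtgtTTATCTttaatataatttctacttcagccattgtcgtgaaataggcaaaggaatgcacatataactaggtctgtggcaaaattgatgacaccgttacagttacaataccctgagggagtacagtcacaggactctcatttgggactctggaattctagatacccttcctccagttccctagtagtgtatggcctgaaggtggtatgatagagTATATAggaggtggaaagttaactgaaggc
Of 17 prolactin genes with a promoter in that table (of 20 listed), 14 held TATATA and 6 held AGATAA in this window, against 5.25% and 9.99% of 32851 promoters of the same length. A match is a description of the letters and not a site.

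Prl7d1 was at 9.22 on day 26 in ko and at the floor on the other 3 arrays of the step, at least 11.9-fold higher in ko (adjusted p = 0.00482 for the difference, by limma). Prl7b1 was likewise at 8.89 on day 26 in ko and at the floor on the other 3, at least 9.49-fold higher. Both were at the floor on all earlier days and in all 5 iPSC clones. Prl2a1 was above the floor in both genotypes, at 10.17 (day 26) and 7.71 (day 22) in ko, against 7.33 and 6.34 in wt, so it was 5.5-fold higher in ko and 1.98-fold higher in wt. Prl4a1 was at 8.1 and 6.25 in ko, against 6.42 and 6.89 in wt, and Prl6a1 at 7.13 and the floor in ko, against the floor on both days in wt. Of 17 family members on the array 11 were at the floor on all 4 arrays, and of the 6 tested, 5 were at least 2-fold higher in ko and 5 passed, against 0.511% of all genes tested in that direction. The 6 were above the floor in ko on day 26, which is what let 4 of them be tested.

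Other placental genes had the same direction. Tpbpa, the standard marker of spongiotrophoblast, was at 8.72 (day 26) and 5.92 (day 22) in ko and at the floor on both days in wt (adjusted p = 0.00749 by limma). The placental cathepsin gene Ctsj was at 9.0 and 6.88 in ko and at the floor in wt, and Ceacam9, of a family expressed in trophoblast, at 8.72 and 6.1 in ko, against 5.95 and the floor in wt. Serpinb9g, a serpin gene, was at 7.94 on day 26 in ko and at the floor on the other 3 arrays, and Ceacam15 at 7.77 and 5.97 in ko, against 5.66 and the floor in wt. Of the 7 tested cathepsin and giant cell genes (21 on the array) 4 were at least 2-fold higher in ko and passed, against 0.511% of all genes tested. The other 14 on the array were at the floor on all 4 arrays, and 2 of the 7, Serpinb9g and Ctsq, entered the test only through ko on day 26. Ctla2a was higher in both genotypes, at 10.48 and 9.54 in ko, against 11.29 and 9.95 in wt. The 9 calls of the 2 placental lists all held without day 19, with quantile normalization or median centring, and with the spread taken from the clone and siRNA arrays, while 7 of 9 held without day 11, 6 of 9 without day 15, 7 of 9 for day 26 against the mean of days 11 to 22, and 3 of 9 with floored genes at the 90th percentile of the spread. Each of the 9 was at the floor on at least 1 earlier array, so 0 of them entered the test of genes above the floor on all 10 culture arrays.

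Among regulators of trophoblast 0 of 13 tested passed. Cdx2 was at 6.07 and 5.86 in ko, against 5.84 and 5.67 in wt, and Hand1 at 6.14 and 6.05 in ko, against 6.13 and 6.0 in wt. Elf5 was higher on day 26 in both, by 1.28 in ko and 0.67 in wt, and Gata3 was lower, with changes of -1.11 in ko and -0.16 in wt. Plac1 differed by 2.34 ± 0.54 (SE; adjusted p = 0.12 by limma), at 7.17 and the floor in ko against 5.78 and 6.59 in wt.

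**Figure D4:**
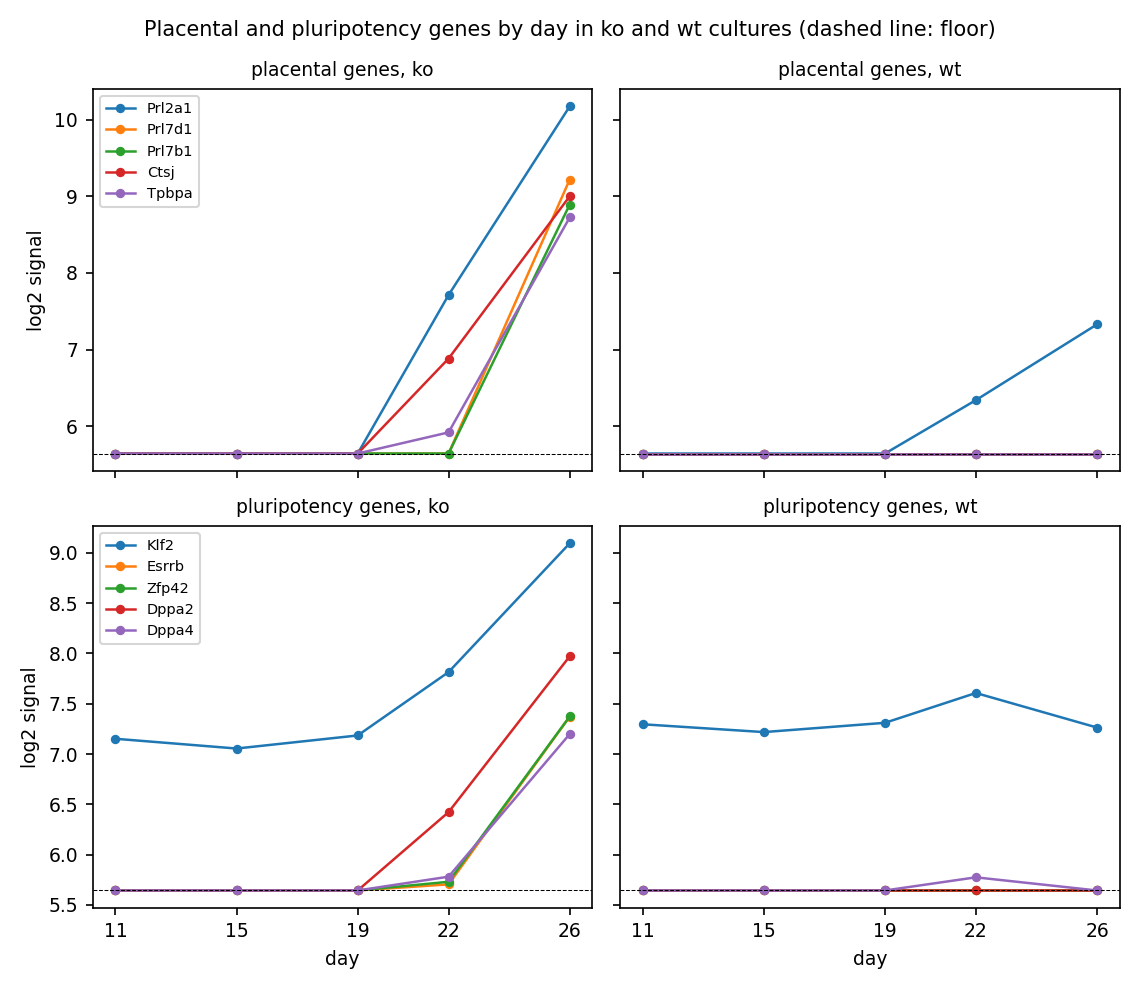
Log2 signal of 5 placental genes (top) and 5 pluripotency genes (bottom) on days 11 to 26 in ko (left) and wt cultures (right), 1 array per point, with the floor as a dashed line. On day 26 the 10 genes lie between 7.20 and 10.17 in ko, and in wt 8 of them are at the floor while Prl2a1 is at 7.33 and Klf2 at 7.26.

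Genes of the naive pluripotent state were also higher on day 26 in ko. Esrrb, a nuclear receptor of the network that Tcf3 is known to repress in embryonic stem cells, was at 7.37 (day 26) and 5.7 (day 22) in ko and at the floor on both days in wt. Zfp42 (Rex1), a common marker of the state, was at 7.37 and 5.73 in ko and at the floor in wt, and the factor gene Klf2 at 9.09 and 7.81 in ko, against 7.26 and 7.61 in wt. For Esrrb and Zfp42, ko on day 26 was the first culture array clearly above the floor, and both stayed far below the iPSC clones, which had 11.27 to 11.62 for Esrrb and 12.28 to 13.04 for Zfp42. Dppa2 and Dppa4, partner genes of pluripotent cells, were at 7.97 and 7.2 in ko on day 26, against the floor for both in wt. Together with Tbx3, at 7.14 and 6.2 in ko against 6.3 and 6.7 in wt, these were the 6 genes of the 2 pluripotency lists (13 and 14 tested) that passed, against 0.511% of all genes tested, with differences of 1.34 to 1.67 and adjusted p of 0.0144 to 0.0363 by limma. Of the 13 tested naive genes 6 were at least 2-fold higher in ko, against 2.21% of all genes, and 0 in wt, with 2 of the 13 above the floor only in ko on day 26. All 6 calls were lost without day 11 and without day 15, 3 of 6 held with the spread taken from the clone and siRNA arrays, and 1 of 6 with floored genes at the 90th percentile of the spread.

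The pluripotency lists were not uniform. Nr0b1, at 8.26 and 9.33 in ko against 7.61 and 6.75 in wt, ran the other way (difference -1.93 ± 0.6, SE; adjusted p = 0.20 by limma). Nanog was higher on day 26 in both genotypes, by 0.63 in ko and 0.79 in wt, and Sox2 by 0.89 and 0.34. Lin28a had the largest difference of the 2 lists, 3.17, at 8.41 and 5.83 in ko against 6.75 and 7.35 in wt, but did not pass (adjusted p = 0.15 by limma); on day 15 it had been at the floor in ko and at 7.24 in wt. Dppa5a (1.29 in ko, -0.14 in wt), Dnmt3b (1.34, 0.011) and Tdgf1 (1.28, 0.53) were at least 2-fold higher in ko and did not pass either. Lefty1, a Nodal inhibitor of the same cells, passed, at 9.21 and 8.02 in ko against 8.29 and 8.19 in wt (adjusted p = 0.0489 by limma).

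Among 11 tested genes induced by low oxygen 4 were at least 2-fold lower on day 26 in wt, against 0.812% of all genes, and 1 passed the test of the difference. Car9, Egln3 and Ankrd37 are shown by the 250 bases before their RefSeq start (GRCm38.p6), 5′ to 3′ on the gene's strand, because the hypoxia response core ACGTG, in capitals on either strand, can be read in each. They lie at chr4:43506776-43507025 (Car9, plus strand), chr12:54203875-54204124 (Egln3, minus strand) and chr8:45999851-46000100 (Ankrd37, minus strand).
Car9: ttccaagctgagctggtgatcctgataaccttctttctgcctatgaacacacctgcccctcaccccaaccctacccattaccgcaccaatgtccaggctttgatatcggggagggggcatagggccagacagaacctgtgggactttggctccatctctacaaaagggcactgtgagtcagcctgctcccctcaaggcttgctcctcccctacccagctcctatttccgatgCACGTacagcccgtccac
Egln3: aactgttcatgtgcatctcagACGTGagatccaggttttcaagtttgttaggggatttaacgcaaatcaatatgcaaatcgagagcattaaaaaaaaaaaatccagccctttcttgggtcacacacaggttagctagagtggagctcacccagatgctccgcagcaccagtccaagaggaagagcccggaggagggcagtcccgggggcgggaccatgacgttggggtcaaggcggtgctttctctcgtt
Ankrd37: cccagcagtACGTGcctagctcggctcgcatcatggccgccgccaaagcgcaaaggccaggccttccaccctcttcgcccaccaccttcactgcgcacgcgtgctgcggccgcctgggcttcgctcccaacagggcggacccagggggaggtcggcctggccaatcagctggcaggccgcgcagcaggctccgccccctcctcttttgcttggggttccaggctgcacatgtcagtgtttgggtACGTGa
Of 10 list members with a promoter in that table (of 12 listed), 6 held ACGTG in this window, against 16.6% of 32851 promoters. Car9, a carbonic anhydrase gene, was at 5.73 (day 26) and the floor (day 22) in ko, against the floor and 8.43 in wt, at least 6.89-fold lower in wt. Egln3, an oxygen-sensing hydroxylase gene, was at 10.95 and 10.05 in ko, against 9.44 and 10.88 in wt, and Ankrd37 at 9.24 and 8.82 in ko, against 7.94 and 9.24 in wt. Ndrg1, a stress-response gene, was at 10.29 and 9.2 in ko, against 8.62 and 10.06 in wt. Each was lower on day 26 in wt and higher in ko. Of the 11 genes 10 had a higher value on day 26 in ko, against 47.9% of all genes tested, and 10 a lower one in wt, against 52.8%. Ndrg1 alone of the 11 passed the test (difference 2.53 ± 0.32, SE; adjusted p = 0.0363 by limma). It did not pass with the mean of its 2 probe sets, with the plain limma prior, or for day 26 against the mean of days 11 to 22. Nor did it pass among genes above the floor on all 10 culture arrays, or with floored genes at the 90th percentile of the spread. Adm was higher in both (0.88 in ko, 0.64 in wt).

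Among 11 tested immediate early genes 2 were at least 2-fold lower on day 26 in wt, against 0.812% of all genes tested. All 11 had a lower value there, against 52.8% of all genes tested, with changes of -0.7 in ko and -1.64 in wt for Fos and -0.49 in ko and -1.45 in wt for Egr1. The phosphatase gene Dusp1 alone of the 11 passed, at 10.99 and 10.29 in ko, against 10.26 and 10.82 in wt (adjusted p = 0.0431 by limma).

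Several lists had larger changes in ko than in wt and held 0 calls. Of 22 epithelial genes 14 were at least 2-fold higher in ko and 1, Cldn6, in wt, against 2.21% and 1.81% of all genes tested. Their medians were 1.06 in ko and 0.031 in wt. The keratin gene Krt18 was at 10.95 (day 26) and 9.19 (day 22) in ko, against 9.3 and 10.28 in wt, and Epcam at 11.99 and 10.84 in ko, against 11.55 and 10.93 in wt. All 22 had a higher value in ko, against 47.9% of all genes tested. Of 15 interferon-induced genes 7 were at least 2-fold lower in ko and 0 in wt, against 1.09% and 0.812% of all genes tested. Ifit1 was at 7.46 and 9.97 in ko, against 9.11 and 9.04 in wt, and Gbp3 at 7.08 and 9.39 in ko, against 7.96 and 8.13 in wt. Ifit1 had also differed on day 19, at 8.95 in ko and 11.64 in wt, and its difference of changes was -2.58 ± 1.3 (SE; adjusted p = 0.379 by limma). All 18 cell cycle genes were lower on day 26 in ko and 17 in wt, against 49.7% and 52.8% of all genes tested. Their medians were -0.55 and -0.16, and 0 of them reached 2-fold. Of 27 matrix and fibroblast genes 25 were higher in ko and 23 in wt, against 47.9% and 45.4% of all genes tested. Their medians were 0.5 and 0.15, and again 0 reached 2-fold.

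Of the 40 lists, 17 held at least 1 call for the difference and 23 held 0, 1 of which, the genes of the two-cell-like state, had no tested gene. The list of Tcf/Lef factors and corepressors (13 tested) had 0 calls, as did Wnt targets (8), primitive and visceral endoderm (12), glycolysis (12), chaperones (10), cholesterol synthesis (10), imprinted genes (13) and adipocyte genes (11).

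**Figure D5:**
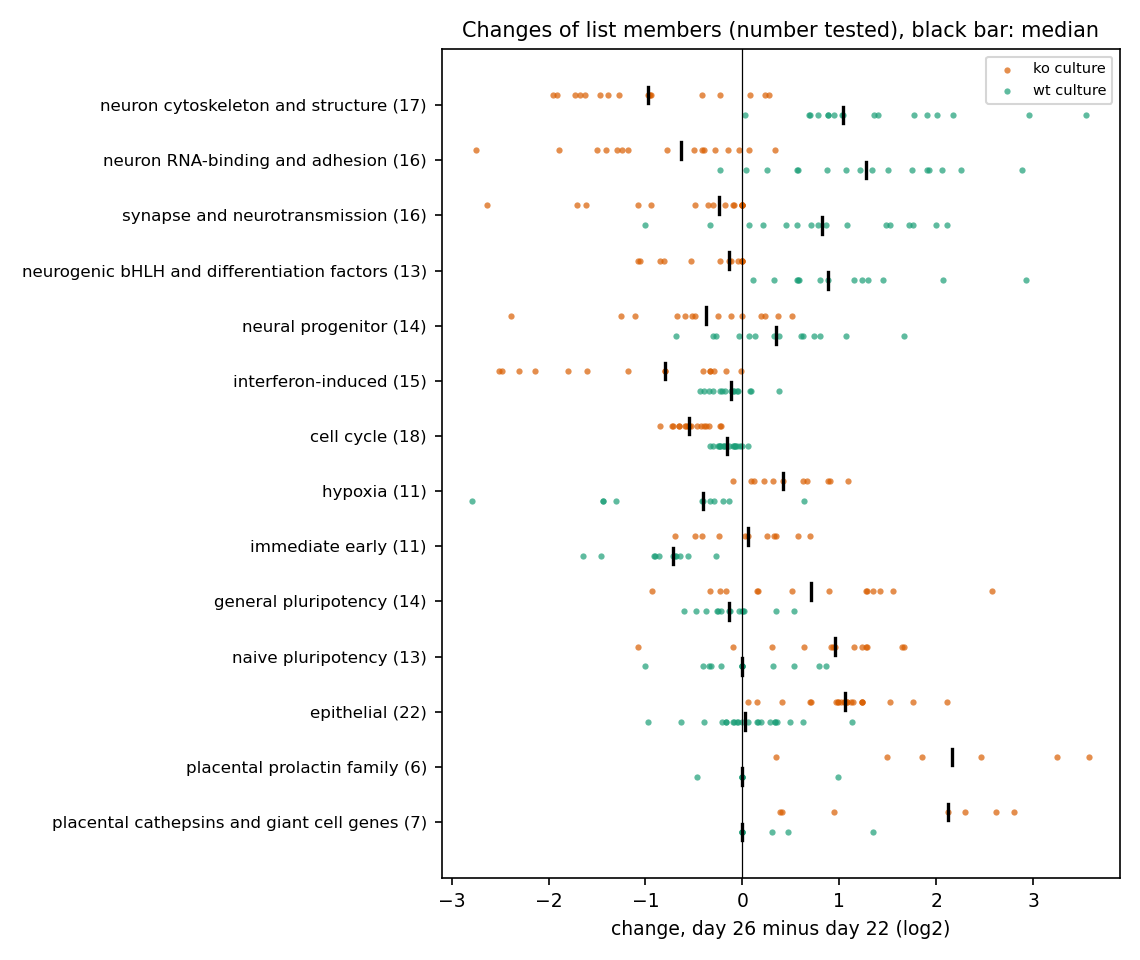
Change from day 22 to day 26 of each tested list member (points), in log2 units, in ko (upper row of each pair) and wt cultures (lower row), with the number of members tested and their median as a black bar. Neuron lists have medians below 0 in ko and above 0 in wt, placental and epithelial lists have medians above 1 in ko and near 0 in wt, and the hypoxia list has medians of 0.42 in ko and -0.40 in wt.

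Among the genes that passed and were above the floor on all 4 arrays, those with the most positive differences were of several kinds. The basal keratin gene Krt14 had a larger difference and did not pass, at 8.34 (day 26) and 6.51 (day 22) in ko, against 7.11 and 9.39 in wt (difference 4.11 ± 0.87, SE; adjusted p = 0.101 by limma). Krt5, its partner in basal epithelium, was the 1 call among 12 tested keratinocyte genes. Gkn1, which encodes a secreted protein of the stomach lining, was at 7.46 (day 26) and 6.48 (day 22) in ko, against 6.64 and 8.24 in wt (difference 2.57 ± 0.18, SE; adjusted p = 0.00889 by limma). The thyrotropin-releasing hormone gene Trh was at 8.61 and 6.15 in ko, against 6.08 and 6.08 in wt. Smooth muscle actin Actg2 differed mainly through wt, at 8.85 and 8.46 in ko, against 7.97 and 9.84 in wt. Integrin gene Itga8 (1.3 in ko, -1.11 in wt), Avil (0.48, -1.4), Sgms2 (0.68, -1.2), Krt5 (0.53, -1.13) and 8030474K03Rik (0.68, -1.38) had opposite signs in the 2 genotypes, while Pglyrp1 (1.67, -0.22) was mainly higher in ko. Of these genes Gkn1, Actg2, Itga8, Avil, Sgms2 and Krt5 did not pass for day 26 against the mean of days 11 to 22. Cd68, of macrophage lysosomes, was at 8.98 and 7.45 in ko, against 7.1 and 7.64 in wt, although the defining macrophage markers C1qa, C1qb and Adgre1 were at the floor on all 4 arrays and Cd68 was the only call among 6 tested macrophage genes. The 2 macrophage markers that were above the floor, Csf1r and Lyz2, were so on all 4 arrays. The pericyte gene Rgs5 was at 7.73 in ko on day 26 and at the floor on the other 3 arrays.

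A few genes that passed had their highest level of the 4 arrays on day 22 in wt. Th, the rate-limiting enzyme of dopamine synthesis, was at the floor on day 26 and at 5.82 on day 22 in ko, against the floor and 8.23 in wt, so its change was the more positive one in ko. The tachykinin gene Tac2, at 6.62 and 6.9 in ko against the floor and 7.62 in wt, and the deacetylase gene Hdac9, at 6.21 and 6.82 in ko against the floor and 7.71 in wt, were like it. S100g, which encodes the calcium-binding protein calbindin-D9k, was at the floor on both days in ko, against 8.83 and the floor in wt, and had been at 10.13 in ko and 10.48 in wt on day 19. Of other genes named for their negative difference, the neurocan gene Ncan was at the floor and 7.22 in ko, against 9.3 and 6.77 in wt, and the neuronal kinesin gene Kif5c at 7.95 and 9.43 in ko, against 11.29 and 9.52 in wt. Rab6b (-2.01 in ko, 1.6 in wt), Cracd (-1.52, 1.71), Ntm (-1.06, 2.19), Gdap1 (-1.34, 2.2), Tmem130 (-1.2, 2.08) and Gm3515 (-1.56, 1.04) were also lower in ko and higher in wt, and the probe sets of Gdap1 disagreed, with differences of -3.55 to 0.06.

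Without days 11 or 15 a number of these calls were lost. Of the 48 genes named for their difference, 36 passed without day 11 and 31 without day 15, with adjusted p of 0.0596 to 0.0949 and 0.0513 to 0.111 by limma for the others, among them Cd68, Pglyrp1, Avil, Sgms2, Krt5, 8030474K03Rik, Dppa2, Ceacam15, Hdac9, Tac2 and Chgb under both. For day 26 against the mean of days 11 to 22, 36 of the 48 passed. Those that did not were Gkn1, Ndrg1, Itga8, Actg2, Avil, Sgms2, Krt5, Ctsj, Th, Hdac9, Tac2 and Chgb. With the spread taken from the clone and siRNA arrays 37 of the 48 passed.

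Changes shared by ko and wt did not pass the test. With the wt and ko steps as pairs and the disagreement of the genotypes over all 5 days as spread, limma called 0 of 12926 genes (0%), the smallest adjusted p being 0.240, and 1718 genes (13.3%) had an unadjusted p under 0.05, 1062 higher and 656 lower. This spread holds the divergence of the last step itself: with ko terms for days 22 and 26, which take the spread from days 11 to 19, 515 genes were higher and 104 lower, and with the spread of the clone and siRNA arrays 328 and 155. Leaving out 1 of the 4 arrays leaves 1 array for that day, so the estimate follows mostly the genotype that keeps both days. The number of calls then moved with the array left out and is not read as shared change. A difference that all arrays of a day share, such as handling, cannot be told apart from the day.

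The genes with the largest changes common to both genotypes are therefore given as values. Comp, of cartilage matrix, was at 8.69 (day 26) and 6.35 (day 22) in ko, against 9.63 and 7.83 in wt, a mean change of 2.07 ± 0.51 (SE; adjusted p = 0.265 by limma). Ppbp, a platelet chemokine gene, was at 9.31 and 7.2 in ko, against 8.76 and 7.04 in wt, and Smoc2, of the matrix, at 9.36 and 8.02 in ko, against 9.99 and 8.74 in wt. Others were Reg1, Npy1r, Kng1, Mmp8, S100a9, Adamts15, Slc23a1, Fndc1 and Cldn6, with mean changes of 1.2 to 1.96. For 7 of these 12 day 22 was the lowest of the 5 days in both genotypes. Choosing genes by their rise from day 22 favours that. Smoc2 was at 11.02, 11.45, 10.63, 8.02 and 9.36 on days 11 to 26 in ko, and at 11.02, 11.23, 10.47, 8.74 and 9.99 in wt. Cldn6 and Slc23a1 instead had their highest value on day 26 in both, as did Ppbp.

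Among genes lower in both, the POU factor gene Pou3f1, of the post-implantation epiblast and neural cells, was at 6.3 (day 26) and 7.51 (day 22) in ko, against 6.18 and 7.96 in wt (mean change -1.49 ± 0.15, SE; adjusted p = 0.24 by limma). Lgals7, a galectin gene of stratified epithelia, was at 8.99 and 10.36 in ko, against 8.34 and 10.42 in wt, and the uroplakin gene Upk1b at 6.02 and 7.17 in ko, against 6.18 and 9.05 in wt. The germ cell factor gene Sohlh2 had changes of -2.39 in ko and -1.0 in wt, and Drp2, Grtp1, Khdrbs3, Hs3st3b1, Podxl, Ifi27l2a, Plek2 and Myrf had mean changes of -1.37 to -0.87. For 9 of the 12 day 22 was the highest of the 5 days in both genotypes. Choosing genes by their fall from day 22 favours that. Among genes with an array at the floor, day 22 was lowest or tied for lowest in both for 9 of the 12 with the largest common increase (Cxcl3 and Ptprr among them). Stfa3, Mcoln3 and Nebl were ties, at the floor on day 22 and on an earlier day in both genotypes. In this set the choice of genes puts a day 22 array at the floor, so no earlier day could be lower there. For 10 of the 12 with the largest common decrease (Vat1l and Vtn among them) day 22 was highest in both, which the choice of genes also favours.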

How the data were processed

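RNA from 18 cultures and clones was hybridised to Affymetrix arrays, 1 array per sample. The authors deposited log2 values made with RMA, per the submitters' processing notes, with no version named; the step that set the floor, seen in the values, is not stated either. Of 40508 probe sets, 31076 have 1 gene symbol in the platform annotation, 636 several and 8796 none, and each of 17903 genes was taken by its probe set with the highest mean over all 18 arrays. The 12926 genes above the floor on at least 1 of the 4 arrays were tested.

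Both tests used limma 3.58.1 in R 4.3.3 with Benjamini-Hochberg adjustment over all genes tested. The shared change was day 26 minus day 22 with day and genotype as terms over 10 culture arrays (4 residual degrees of freedom). The difference of changes added ko terms for days 22 and 26 (2 residual degrees of freedom). The prior variance came from genes above the floor on all 10 arrays and was the least variance given to a floored gene. The changes of ko and wt alone have no test, and 2-fold is a description. Named were up to 12 genes each way for the shared change and for the difference, above the floor and at it apart, list members and the factor genes. The members and lists were chosen with earlier results of these data known. The number of arrays limits the precision, and nothing in the labels shows that arrays are of separate cultures, so a p-value covers only how these arrays scatter, which may be technical. The fits were run on simulated data, with changes placed only in genes with a mean well above the floor. Changes of genes at the floor on the earlier days were not tried. Promoter sequences are from RefSeq, GRCm38.p6.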

Additional observations from a re-analysis of the deposited data

Results flagged for a closer look

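A difference between the ko and the wt change from day 22 to day 26, tested with limma at an adjusted p under 0.05, was found for 66 genes with a more positive change in ko and 179 with a more negative one. Those named by rule or as list members are given here with the difference, ko change minus wt change, in log2 units; with 1 array per genotype and day, each rests on 4 arrays and on the spread of the earlier days, and where a level is at the floor the difference is not exact. The differences of the 30 neuron list members were all negative: Ina (-4.93), Dcx (-4.87), Elavl4 (-4.50), Elavl3 (-4.30), Nhlh2 (-4.0), Rtn1 (-3.96), Stmn3 (-3.89), Nsg2 (-3.81), Syt4 (-3.70), Nefm (-3.58), Dner (-3.56), Rbfox1 (-3.44), Scg3 (-3.33), Nova1 (-3.15), Stmn4 (-2.68), Nnat (-2.63), Scg5 (-2.47), Dpysl5 (-2.31), Tagln3 (-2.27), Gad1 (-2.11), Insm1 (-2.03), Gap43 (-2.00), Syt1 (-1.94), Snap25 (-1.75), Chgb (-1.64), Ebf2 (-1.56), Slc17a6 (-1.48), Syp (-1.44), Ebf3 (-1.34) and Mapt (-1.30). Other negative differences were Rab6b (-3.62), Otp (-3.54), Kif5c (-3.24), Cracd (-3.23), Tmem130 (-3.28), Ncan (-4.11), S100g (-3.18), Gdap1 (-3.55), Gm3515 (-2.59), Ntm (-3.25), Pax6 (-2.32), Hes5 (-1.33), Lhx1 (-2.25), En2 (-2.31) and Hoxa9 (-2.98).

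The differences of placental genes were positive: Prl7d1 (3.57), Prl7b1 (3.25), Tpbpa (2.80), Prl4a1 (2.32), Ceacam9 (2.31), Serpinb9g (2.30), Ctsj (2.12), Ceacam15 (1.78), Prl6a1 (1.49) and Prl2a1 (1.47). Those of the pluripotency lists were Esrrb (1.67), Zfp42 (1.64), Klf2 (1.62), Dppa2 (1.55), Dppa4 (1.55) and Tbx3 (1.34). The other positive differences were Gkn1 (2.57), Ndrg1 (2.53), Trh (2.46), Otx2 (2.42), Th (2.41), Itga8 (2.41), Actg2 (2.27), Rgs5 (2.09), Cd68 (2.06), 8030474K03Rik (2.05), Pglyrp1 (1.89), Avil (1.88), Sgms2 (1.88), Tac2 (1.69), Krt5 (1.66), Hdac9 (1.46), Dusp1 (1.26) and Lefty1 (1.09).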

How the results depend on the processing

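No paired analysis was possible because the culture arrays, 1 per group, carry no replicate numbers to pair by; pairing by genotype is part of the shared test, and with the 4 arrays alone it called 0 genes (smallest adjusted p = 0.582 by limma, with 673 higher and 402 lower genes at an unadjusted p under 0.05). The shared change called 0 genes in each direction. It called 328 higher and 155 lower with the spread of the clone and siRNA arrays, 515 and 104 with ko terms for days 22 and 26, and, leaving out 1 of the 4 arrays, 0 to 381 higher and 2 to 86 lower. The difference of changes (66 more positive in ko, 179 more negative) gave 187 and 322 with the plain limma prior, of which 33 and 108 were among the original calls, 4 and 15 over the genes that no culture array had at the floor, 14 and 82 without day 11, 17 and 60 without day 15, 372 and 346 without day 19, and 12 and 53 with floored genes at the 90th percentile of the spread, an alternative chosen after seeing the data. With the clone and siRNA spread 107 were more positive, 30 of them original calls. The cause of these moves was not tested, apart from the smaller number of genes or days that some of the alternatives use. The genes at least 2-fold higher in ko (286) numbered 1190 at 1.5-fold and 18 at 4-fold, and those lower in ko (141) numbered 579 and 16, 93 with the mean of probe sets and 242 by limma with the clone spread. The genes higher in wt (234) numbered 618 at 1.5-fold, 25 at 4-fold and 143 with the mean of probe sets, and those lower in wt (105) numbered 332 and 14. For 79 genes with a tested difference, 596 of the recomputed values kept their call and 217 lost it, and 0 changed sign. Most alternatives change only the spread and leave the difference as it is. A sign could change only under quantile normalization, median centring, probe set means or comparison with the mean of days 11 to 22. Quantile normalization and median centring kept all 48 named calls, the plain prior 31. Of 12 named genes with several probe sets above the floor, 11 had the same sign in all. Levels below the floor set the limit of what can be seen.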
